A study of Mus musculus with 6 samples.

Results

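The TNF ligand and receptor superfamily was examined in cultured mouse enteric glial cells (EGCs), the supporting cells of the nervous system of the gut, with and without lipopolysaccharide (LPS, a component of the outer membrane of Gram-negative bacteria). Members were taken by gene symbol: every symbol that starts with Tnfsf or Tnfrsf followed by a digit, together with Tnf, Lta, Ltb, Ltbr, Cd27, Cd70, Cd40, Fas, Fasl and Eda2r. The rule found 42 of the 46603 genes in the files, which are 16 ligands, 25 receptors and the antisense transcript Tnfsf13os, and it used no measured value. Poly(A) RNA was sequenced from 3 untreated control libraries and from 3 libraries of cells given 100 ng/ml LPS for 12 hours. All 6 libraries came from C57BL/6J mice. Cells of the total intestine of E14.5 embryos were grown as neurospheres for 1 week with B27, 40 ng/ml EGF and 20 ng/ml FGF, and were then plated on a PDL coating with 10% FBS until they were confluent. These are cultures derived from whole embryonic gut, with no sort of glia named in the labels. The labels do not say whether libraries of a group came from separate embryos or cultures, so the p-values measure only the spread between these libraries.

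Ligands of the TNF superfamily are mostly trimeric proteins of the cell surface, and several of them are also released by proteases. Their receptors fall into those with a cytoplasmic death domain, which can assemble a caspase-activating complex, those without it, which recruit TRAF adaptor proteins and turn on NF-κB and MAP kinases, and decoys that bind a ligand without passing on a signal. LPS is sensed by TLR4 and switches on NF-κB, for which Tnf, Cd40 and Tnfaip3 are textbook targets, and TNF is a central inflammatory cytokine of the gut wall.

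Library totals ran from 18775316 to 23664312 counts, and values are given as CPM, the count of a gene relative to its library's total on a common scale, adjusted with edgeR's TMM factors, which ran from 0.917 to 1.08. At these depths 3 counts correspond to 0.124 to 0.167 CPM. Glial markers were present in every library: Sox10 was at 101, 89.5 and 73.8 CPM in controls 1, 2 and 3 and at 76.8, 78.2 and 75.9 CPM in the LPS libraries. The list of glial markers summed to 493 to 694 CPM in the controls and to 533 to 550 CPM after LPS, and of 10 tested, Fabp7 was called higher and S100b and Cdh19 lower. The cultures also held other transcripts: 8 mesenchymal markers summed to between 15123 and 16295 CPM, and 14 macrophage markers to 4029, 5217 and 12329 CPM in the controls and to 4144, 5385 and 20193 CPM after LPS. Both libraries numbered 3 thus stood apart by their macrophage markers, of which 1 of 14 (Adgre1) was called higher after LPS in edgeR's quasi-likelihood test. Log2 fold changes of the 14 ran from -3.08 to 3.15. With the replicate number also in the fit, 5 were called higher and 4 lower, against 15.4% and 14.9% of all genes tested. The 9 neuron markers set the libraries numbered 3 apart in the other direction, with sums of 634, 628 and 282 CPM in the controls and 526, 590 and 310 CPM after LPS. Smooth muscle markers were lower in 7 of 8 cases, with a summed level of 2349 to 2599 CPM in controls and 683 to 982 CPM after LPS. Summed mast cell markers ran from 18.6 to 80.0 CPM in the controls and from 10.2 to 13.6 CPM after LPS, and dendritic cell markers from 12.5 to 20.99 and from 7.41 to 10.2 CPM. Endothelial markers summed to 27.9, 37.1 and 74.6 CPM in the controls and 15.6, 18.6 and 29.8 CPM after LPS, with 1 of 4 tested called lower. Of 13 T and NK cell markers, 4 (Cd4, Gzmb, Lck and Trbc2) could be tested. The list summed to between 6.97 and 11.3 CPM, Cd3d, Cd3e and Cd3g were at 0 counts in all 6 libraries, and the B-cell gene Cd79a was at 0 in all but control 1. In bulk RNA, fewer cells of a type and less RNA per cell cannot be told apart.

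Of the 42 members, 31 passed the filter on low counts; 13 of these were higher after LPS (41.9%) and 3 were lower (9.68%) at an adjusted p under 0.05 in edgeR's quasi-likelihood test, with p-values adjusted over all 15226 genes tested. Among all genes tested, 9.09% were higher, 6.71% were lower and 15.8% were called in either direction. Tnf, Tnfsf10, Tnfrsf9, Cd40, Tnfsf11, Tnfrsf8, Fas, Tnfrsf1b, Tnfsf13b, Tnfrsf14, Tnfrsf23, Tnfsf9 and Tnfrsf12a rose, and Tnfrsf21, Tnfrsf19 and Tnfsf12 fell. The median log2 fold change was 0.93 over the 31 members tested and -0.020 over all genes tested. Of the 13 that rose, Tnfsf10, Tnfsf11, Tnfrsf8 and Tnfrsf9 had fewer than 10 counts in at least 2 controls and passed the filter mainly through the LPS libraries. Where 10 counts were required in every library, 24 members were tested, of which 9 were higher and 3 lower (8.71% and 7.01% of all genes tested), with a median of 0.56, and without LPS 1 the median was 0.60. In 16 of the 31 members tested all LPS libraries lay above all control libraries, and in 3 they lay below, against 19.3% and 19.4% of all genes tested. With upper-quartile factors or library size alone the median of all genes shifted from -0.020 to -0.12 and -0.18, and the share of all calls that were higher from 57.5% to 39.8% and 32.4%. None of the 16 called members changed direction under any scaling, filter, tool or omission of a library that was tried.

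**Figure D1:**
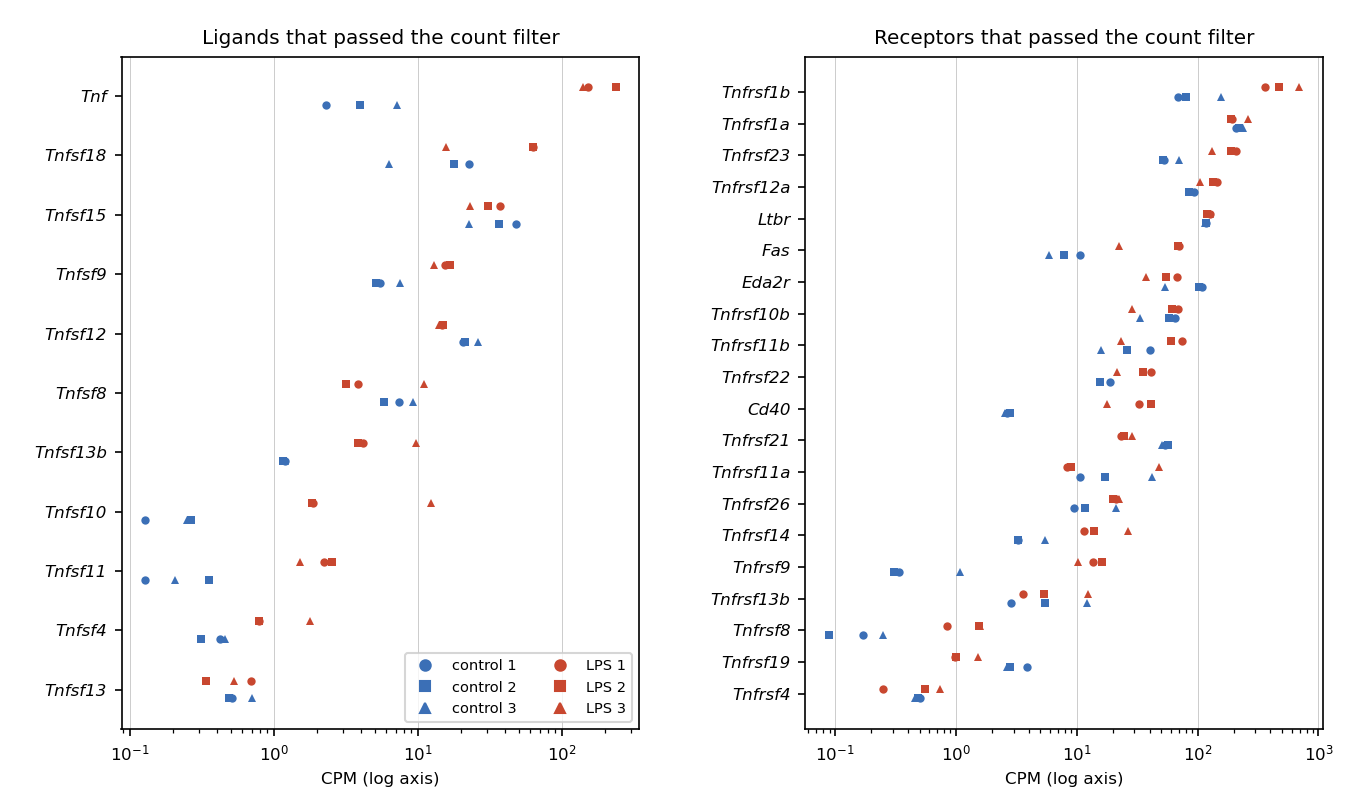
Level of each of the 31 members tested, in CPM on a log axis, with ligands on the left and receptors on the right. Each symbol is 1 library, blue for control and red for LPS, and its shape gives the replicate number; the widest gap between the groups is at Tnf, from 7.19 CPM in the highest control to 139 CPM in the lowest LPS library, and the triangles of the libraries numbered 3 often stand away from the other two.

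The calls of 5 members, Tnf, Tnfsf11, Cd40, Tnfrsf9 and Tnfrsf21, held in each of the 6 fits that left out 1 library. The other 11 were lost without control 1 or without control 2, which left 4 members called higher and 1 lower in each case, where 4.28% and 3.15% of all genes tested were called in either direction. Without LPS 2 the counts were 6 and 1 (4.41% of all genes), and without LPS 1 they were 10 and 1 (5.42%). Without control 3 they were 12 and 3 (14.2%), and without LPS 3 they were 15 and 4 (21.7%). Because both libraries numbered 3 stood apart, a fit without them was added after the data had been seen: it called 17 members higher and 5 lower, and no call was lost. The share of all genes called in that fit was 22.6% higher and 20.4% lower.

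Of the 11 ligands tested, 5 rose (45.5%) and 1 fell (9.09%), and of the 20 receptors tested, 8 rose (40.0%) and 2 fell (10.0%). Over all genes tested the shares were 9.09% and 6.71%. Tnf, the founding ligand and the main inflammatory cytokine of the family, was the member with the largest fitted change (ENSMUSG00000024401, chr17:35199381-35202007, minus strand). It was at 2.29, 3.98 and 7.19 CPM in controls 1, 2 and 3 and at 152, 236 and 139 CPM in LPS libraries 1, 2 and 3. Each LPS library thus lay far above each control, and the highest control and the lowest LPS library were the ones numbered 3. The means were 4.49 ± 2.49 and 176 ± 52.7 CPM (SD, n = 3 each), and the fitted change was a log2 fold change of 5.29 ± 0.49 SE, edgeR adjusted p = 0.00263. Tnfsf11 encodes RANKL, the ligand that drives the formation of osteoclasts (ENSMUSG00000022015, chr14:78277445-78308043, minus strand). It rose from near the counting floor, with 0.127, 0.354 and 0.207 CPM in the controls and 2.22, 2.51 and 1.52 CPM after LPS (log2 fold change of 3.16 ± 0.42 SE, edgeR adjusted p = 0.00861). The 250 bases before the RefSeq start of each gene are shown for these ligands (table build GRCm38.p6), since they are the pair of ligands called in each fit without 1 library. Capitals mark TATAAA, read on either strand, a sequence that positions the transcription machinery. The windows are chr17:35202008-35202257 on the minus strand for Tnf and chr14:78308044-78308293 on the minus strand for Tnfsf11.
Tnf: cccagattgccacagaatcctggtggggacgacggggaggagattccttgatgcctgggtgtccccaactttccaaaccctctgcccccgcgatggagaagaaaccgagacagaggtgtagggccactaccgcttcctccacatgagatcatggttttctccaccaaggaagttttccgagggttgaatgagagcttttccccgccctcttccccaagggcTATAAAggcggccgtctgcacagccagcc
Tnfsf11: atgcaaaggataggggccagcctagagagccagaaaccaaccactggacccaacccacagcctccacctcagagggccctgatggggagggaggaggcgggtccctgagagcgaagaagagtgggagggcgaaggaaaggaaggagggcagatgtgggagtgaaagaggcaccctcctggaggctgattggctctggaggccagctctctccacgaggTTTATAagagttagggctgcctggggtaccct
The match began 29 bases before the start in Tnf and 32 bases before it in Tnfsf11, where it reads on the opposite strand. TATAAA was present in 12.4% of the 32851 RefSeq windows of this length.

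Other ligands that rose act on lymphocytes or on dying cells. Tnfsf9, the 4-1BB ligand that costimulates T cells, was at 5.42, 5.14 and 7.44 CPM in the controls and 15.3, 16.7 and 12.9 CPM after LPS (log2 fold change of 1.32 ± 0.19 SE, edgeR adjusted p = 0.0117). Its receptor Tnfrsf9 is described with the receptors. Of the exon bases of Tnfsf9, 14.9% lie opposite those of Gm11110, and whether the counting used strand is not given in the sources used here. Tnfsf13b encodes BAFF, a survival factor of B cells. It was at 1.19, 1.15 and 1.20 CPM in the controls and 4.15, 3.85 and 9.68 CPM after LPS (log2 fold change of 2.32 ± 0.42 SE, edgeR adjusted p = 0.0202). Tnfsf10 encodes TRAIL, which triggers death through Tnfrsf10b. It was at 0.127, 0.266 and 0.248 CPM in the controls and 1.88, 1.84 and 12.2 CPM after LPS (log2 fold change of 4.60 ± 1.01 SE, edgeR adjusted p = 0.0342). LPS 3 was the highest library for Tnfsf13b and for Tnfsf10, and the macrophage markers were highest in the same library. Their part in these values was not tested, and without both libraries numbered 3 the log2 fold changes were 1.79 for Tnfsf13b and 3.24 for Tnfsf10 (edgeR adjusted p = 0.0013 and 0.00108).

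Tnfsf12 was the only ligand of 11 tested that was called lower. It encodes TWEAK, the ligand of the Tnfrsf12a product. It was at 20.6, 21.1 and 26.0 CPM in the controls and 14.6, 14.9 and 14.0 CPM after LPS (log2 fold change of -0.64 ± 0.12 SE, edgeR adjusted p = 0.0229). The groups did not overlap, and control 3 was the highest library. Its exons share 48.3% of their bases with the read-through gene Tnfsfm13 on the same strand, so counts could be split between the pair. In the fits that left out 1 library, the adjusted p ran from 0.0301 to 0.0882 for Tnfsf12, with the call lost without control 1, control 2, LPS 1 or LPS 2. It ran from 0.00861 to 0.0653 for Tnfsf9 (lost without control 1, control 2 or LPS 2) and from 0.00461 to 0.098 for Tnfsf13b (lost without control 1 or control 2). For Tnfsf10 it ran from 0.00522 to 0.133, and of these fits the call held only without LPS 3, where the log2 fold change was 3.09. It was also lost in limma-voom (adjusted p = 0.0861).

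Several ligands of the T-cell costimulatory and vascular groups were detected without a call. Tnfsf18, the GITR ligand, was at 22.5, 17.7 and 6.28 CPM in the controls and 62.9, 62.9 and 15.7 CPM after LPS (log2 fold change of 1.61 ± 0.67 SE, edgeR adjusted p = 0.163). In each group its library 3 was the lowest, and LPS 3 lay below control 1 and control 2. With the replicate number as a block, which compares each LPS library with the control of the same number, Tnfsf18 was called higher (log2 fold change 1.56, edgeR adjusted p = 0.00284). Tnfsf4, the OX40 ligand, was at 0.424, 0.310 and 0.455 CPM in the controls and 0.791, 0.780 and 1.78 CPM after LPS, and it was called with the block (edgeR adjusted p = 0.037) and not without it (log2 fold change of 1.48 ± 0.44 SE, edgeR adjusted p = 0.0739). DESeq2, which made more false calls than the other tools on simulated data, called both at an adjusted p close to the threshold (0.0461 and 0.0489), and Tnfsf18 was called without LPS 3 (edgeR adjusted p = 0.045) and without both libraries numbered 3 (8.65e-05). Tnfsf15, known as TL1A, was at 48.0, 36.5 and 22.5 CPM in the controls and 36.8, 30.5 and 22.9 CPM after LPS (log2 fold change of -0.25 ± 0.31 SE, edgeR adjusted p = 0.639). Tnfsf8, the CD30 ligand, was at 7.33, 5.84 and 9.26 CPM in the controls and 3.85, 3.18 and 10.9 CPM after LPS (log2 fold change of -0.32 ± 0.51 SE, edgeR adjusted p = 0.713). For Tnfsf8, LPS 1 and LPS 2 lay below every control and LPS 3 above every control, and it was called lower without LPS 3 or without both libraries numbered 3 (log2 fold change -0.88, edgeR adjusted p = 0.0163 for the latter). Tnfsf13, known as APRIL, was at 0.334 to 0.703 CPM over the 6 libraries, with overlapping groups, and shares 60.0% of its exon bases with Tnfsfm13.

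The remaining ligands were at or close to the counting floor and were not tested. Ltb, a subunit of the lymphotoxin heterotrimer, had 4 counts in each control and 7, 9 and 17 counts in LPS 1, 2 and 3. Lta, the other subunit, had 1, 3 and 1 counts in the controls and 8, 5 and 3 after LPS. These neighbours of Tnf on chromosome 17 thus stayed at or under 0.890 CPM in libraries where Tnf was at or above 139 CPM. Fasl had 1 count in all, in LPS 3, and Cd70 had at most 2 counts in any library. Tnfsf14, known as LIGHT, had 4, 7 and 19 counts in the controls and 1, 3 and 9 after LPS. Tnfsf13os had 2 to 7 counts, and 42.7% of its exon bases lie opposite those of Tnfsf13 or Tnfsfm13.

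Among the 4 death domain receptors tested, Fas rose, Tnfrsf21 fell, and Tnfrsf1a and Tnfrsf10b were not called. Fas, the receptor of the Fasl product (ENSMUSG00000024778, chr19:34290666-34327772, plus strand), was at 10.6, 7.88 and 5.91 CPM in the controls and 70.0, 68.7 and 22.6 CPM after LPS (log2 fold change of 2.73 ± 0.49 SE, edgeR adjusted p = 0.0198). All LPS libraries exceeded all controls, and the library numbered 3 was the lowest of each group. In the fits without 1 library the adjusted p of Fas ran from 0.00155 to 0.0991, and the call was lost without control 1, control 2, LPS 1 or LPS 2. Without both libraries numbered 3 its log2 fold change was 2.93 (edgeR adjusted p = 1.12e-05). Tnfrsf21 encodes death receptor 6, known for its part in the pruning of axons (ENSMUSG00000023915, chr17:43016555-43089189, plus strand). It was at 53.9, 56.8 and 50.5 CPM in the controls and 23.2, 24.6 and 28.6 CPM after LPS, with little spread in either group and no overlap (log2 fold change of -1.07 ± 0.11 SE, edgeR adjusted p = 0.0032). It was the only lower member called in each fit without 1 library.

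Tnfrsf1a encodes the first TNF receptor, which carries the death domain and is found on most cells. It was at 209, 219 and 238 CPM in the controls and 194, 189 and 261 CPM after LPS, with overlapping groups (log2 fold change of -0.048 ± 0.15 SE, edgeR adjusted p = 0.856). Its sign turned in 3 of the 6 fits without 1 library, where the change ran from -0.21 to 0.036. Tnfrsf10b, the mouse TRAIL receptor, was at 65.5, 58.1 and 33.4 CPM in the controls and 69.0, 61.4 and 28.4 CPM after LPS (log2 fold change of 0.016 ± 0.40 SE, edgeR adjusted p = 0.983), and its sign turned negative when upper-quartile factors or plain library size set the scale. The spread within each group of Tnfrsf10b was set by the low libraries numbered 3. Tnfrsf25, the receptor of the Tnfsf15 product, was not tested, with 9 to 18 counts in the controls and 6 to 7 after LPS.

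Of the 12 TRAF-binding receptors tested, 6 rose and 1 fell. Tnfrsf1b, the second TNF receptor, which binds TNF without a death domain (ENSMUSG00000028599, chr4:145213463-145246870, minus strand), was at 68.6, 79.8 and 155 CPM in the controls and 361, 475 and 696 CPM after LPS. The library numbered 3 was the highest of each group, the groups did not overlap, and the change was a log2 fold change of 2.33 ± 0.40 SE, edgeR adjusted p = 0.0178. Tnfrsf8 encodes CD30, a receptor of activated lymphocytes (ENSMUSG00000028602, chr4:145267137-145315164, minus strand). It was at 0.169, 0.0885 and 0.248 CPM in the controls, close to the counting floor, and 0.840, 1.56 and 1.57 CPM after LPS (log2 fold change of 2.92 ± 0.46 SE, edgeR adjusted p = 0.0139). The genes of these receptors are neighbours on chromosome 4 and both rose, so the 250 bases before their RefSeq starts are shown (GRCm38.p6). Capitals mark TTTC followed after any 2 bases by a further TTTC, the core of the interferon-stimulated response element (ISRE), in Tnfrsf1b and the κB consensus, the sequence bound by NF-κB, in Tnfrsf8, each searched on both strands. The windows are chr4:145246871-145247120 for Tnfrsf1b and chr4:145315165-145315414 for Tnfrsf8, both on the minus strand.
Tnfrsf1b: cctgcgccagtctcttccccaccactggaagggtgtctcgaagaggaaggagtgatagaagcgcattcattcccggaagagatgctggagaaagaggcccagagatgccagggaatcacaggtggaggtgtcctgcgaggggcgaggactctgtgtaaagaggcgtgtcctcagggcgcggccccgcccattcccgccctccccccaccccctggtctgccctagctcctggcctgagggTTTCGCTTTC
Tnfrsf8: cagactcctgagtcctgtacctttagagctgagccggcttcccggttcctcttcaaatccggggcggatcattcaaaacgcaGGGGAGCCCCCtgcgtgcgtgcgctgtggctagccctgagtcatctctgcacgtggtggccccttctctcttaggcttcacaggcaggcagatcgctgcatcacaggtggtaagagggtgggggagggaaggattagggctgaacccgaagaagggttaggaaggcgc
The match in Tnfrsf1b began 10 bases before the start, and the κB matches in Tnfrsf8 overlap each other at 168 and 167 bases before it.

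A RefSeq window was found for 32 of the 42 members, among them 11 of the 13 that rose, with none for Cd40 and Tnfsf9. The κB consensus was present in 2 of these 11 (Tnfrsf8 and Tnfrsf9), the ISRE core in 3 (Tnfrsf1b, Tnfrsf14 and Tnfsf13b) and TATAAA in 3 (Tnf, Tnfsf11 and Tnfrsf23). Over all 32851 windows the shares were 7.25%, 2.98% and 12.4%. The Tnf window held no match to the κB consensus. Among the 10 members with a window that were tested and not called, none held the κB consensus or the ISRE core and 2 held TATAAA. Among the 9 with a window that were not tested, 2 held the κB consensus, 1 the ISRE core and 2 TATAAA, and neither of the 2 members with a window that fell held any of them. Tnfrsf9, Tnfsf13b and Tnfrsf25 have 2 windows each with the match in 1 of them, and Tnfrsf19, which fell, has 2 with none, so their counts per gene are not on the same footing as the shares per window. These matches describe letters in a short window and are not measured binding sites.

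Cd40, the receptor through which T cells activate antigen-presenting cells, was at 2.63, 2.79 and 2.56 CPM in the controls and 32.9, 41.5 and 17.7 CPM after LPS (ENSMUSG00000017652, chr2:165055627-165072948, plus strand). The controls lay close together and far below every LPS library, of which LPS 3 was the lowest (log2 fold change of 3.53 ± 0.34 SE, edgeR adjusted p = 0.00287). Tnfrsf9 encodes 4-1BB, the receptor of the Tnfsf9 product (ENSMUSG00000028965, chr4:150914562-150946102, plus strand). It was at 0.339, 0.310 and 1.07 CPM in the controls and 13.5, 16.0 and 10.2 CPM after LPS (log2 fold change of 4.51 ± 0.52 SE, edgeR adjusted p = 0.00529). Control 3 was the highest control and LPS 3 the lowest LPS library, and the groups were still far apart. The log2 fold change of Tnfrsf9 was 5.34 without control 3 and 5.51 without both libraries numbered 3. Both genes were called in every fit without 1 library. Tnfrsf14 encodes HVEM, the receptor of the Tnfsf14 product. It was at 3.26, 3.28 and 5.46 CPM in the controls and 11.5, 13.8 and 26.7 CPM after LPS, and its libraries numbered 3 were the highest of their groups (log2 fold change of 2.11 ± 0.40 SE, edgeR adjusted p = 0.0231). Tnfrsf12a encodes Fn14, the receptor of TWEAK. It was at 93.4, 85.1 and 87.4 CPM in the controls and 144, 135 and 105 CPM after LPS, a small rise with groups that did not overlap (log2 fold change of 0.53 ± 0.13 SE, edgeR adjusted p = 0.0477). In the fits without 1 library the adjusted p ran from 0.0102 to 0.0913 for Tnfrsf1b, from 0.0207 to 0.0711 for Tnfrsf8 and from 0.0159 to 0.108 for Tnfrsf14, and each of these calls was lost without control 1, control 2 or LPS 2. For Tnfrsf12a the range was 0.00475 to 0.172, and the call held only without LPS 3. The call was also lost in limma-voom, without the filter, and when upper-quartile factors or plain library size replaced TMM.

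Tnfrsf19, known as TROY, a receptor of the developing nervous system, was the only TRAF-binding receptor called lower. It was at 3.86, 2.79 and 2.65 CPM in the controls and 0.988, 1.00 and 1.52 CPM after LPS, and the groups did not overlap (log2 fold change of -1.40 ± 0.28 SE, edgeR adjusted p = 0.0269). Its adjusted p ran from 0.0167 to 0.111 in the fits without 1 library, with the call lost without control 1, control 2, LPS 1 or LPS 2. Eda2r, the receptor of an ectodysplasin isoform, was at 109, 102 and 54.0 CPM in the controls and 67.2, 54.9 and 37.3 CPM after LPS. Its libraries numbered 3 were again the lowest of their groups (log2 fold change of -0.73 ± 0.33 SE, edgeR adjusted p = 0.191), and with the replicate block it was called lower (adjusted p = 0.0082).

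The other TRAF-binding receptors tested were not called. Ltbr, the lymphotoxin beta receptor, was among the most even members, at 118, 118 and 115 CPM in the controls and 126, 119 and 128 CPM after LPS (log2 fold change of 0.084 ± 0.064 SE, edgeR adjusted p = 0.419). All 3 LPS values of Ltbr lay above the controls under TMM scaling, while the change was -0.021 under upper-quartile scaling and -0.073 when only library size was used. Tnfrsf11a, which encodes RANK, the receptor of RANKL, was at 10.6, 17.1 and 42.2 CPM in the controls and 8.25, 8.97 and 47.8 CPM after LPS. Tnfrsf13b, a receptor of BAFF and APRIL known as TACI, was at 2.84, 5.49 and 12.2 CPM in the controls and 3.56, 5.41 and 12.4 CPM after LPS. Both were highest in the libraries numbered 3, and their groups overlapped. Tnfrsf4, which encodes OX40, was at 0.247 to 0.733 CPM in the 6 libraries. Tnfrsf18, Cd27, Tnfrsf13c and Tnfrsf17, receptors known from lymphocytes, were not tested: Tnfrsf18 had 2 to 8 counts, and the other three had 0 or 1 count in each library.

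The 4 decoy or non-signalling receptors all had positive fitted changes, from 0.58 to 1.60, and 1 was called (25.0%, against 9.09% of all genes tested). Tnfrsf23, a mouse TRAIL decoy, was at 52.5, 51.2 and 70.3 CPM in the controls and 208, 189 and 132 CPM after LPS (log2 fold change of 1.60 ± 0.21 SE, edgeR adjusted p = 0.00856). Its call was lost without control 1 or control 2, with an adjusted p of 0.0025 to 0.0577 over the fits without 1 library. Its neighbour Tnfrsf22, also a TRAIL decoy, was at 18.8, 15.6 and 15.7 CPM in the controls and 41.5, 35.1 and 21.7 CPM after LPS (log2 fold change of 0.97 ± 0.25 SE, edgeR adjusted p = 0.0504). The groups of Tnfrsf22 did not overlap, and it was called with the replicate block (adjusted p = 0.0206), with RLE factors, in DESeq2, without LPS 3 and without both libraries numbered 3. Of the 50-base words in their transcripts, 27.4% of those of Tnfrsf22 and 19.3% of those of Tnfrsf23 occur in another gene, mostly in each other, so their counts are uncertain to that extent. Tnfrsf26, the third gene of this cluster on chromosome 7, was at 9.45, 11.6 and 21.1 CPM in the controls and 21.1, 19.8 and 22.4 CPM after LPS (log2 fold change of 0.58 ± 0.30 SE, edgeR adjusted p = 0.248), with control 3 inside the LPS range. It was called higher without control 3 (log2 fold change 1.01, edgeR adjusted p = 0.0147) and without both libraries numbered 3 (0.98, 0.00112). Tnfrsf11b encodes osteoprotegerin, the soluble decoy of RANKL. It was at 40.6, 26.1 and 15.9 CPM in the controls and 74.3, 60.0 and 23.1 CPM after LPS, and was lowest in the libraries numbered 3 (log2 fold change of 0.93 ± 0.51 SE, edgeR adjusted p = 0.271). It was called with the block (adjusted p = 0.0155) and without both libraries numbered 3 (0.00783).

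**Figure D2:**
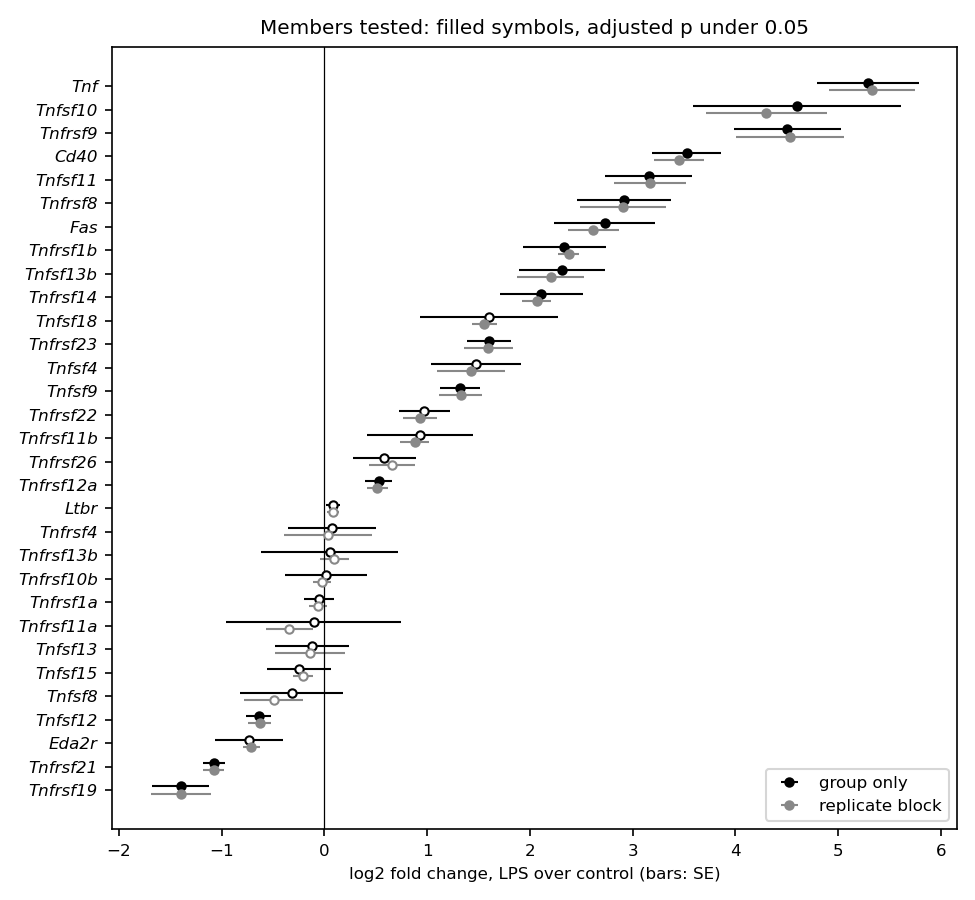
Fitted log2 fold change, LPS over control, of the 31 members tested, with bars of 1 SE; black is the fit on group alone and grey the fit with the replicate number as a block, and filled symbols have an adjusted p under 0.05 in edgeR. Tnf is at the top at 5.29 and Tnfrsf19 at the bottom at -1.40, and 5 members (Tnfsf18, Tnfsf4, Tnfrsf22, Tnfrsf11b and Eda2r) are filled only in grey.

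With the replicate block 17 members were called higher and 4 lower, against 15.4% and 14.9% of all genes tested. All 16 calls of the fit on group alone were kept.

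Divided by exon length, the levels of the receptors and ligands can be set beside each other, and LPS changed their order. In the controls Tnfrsf1a had the highest mean among receptors, at 85.6 ± 5.66 CPM per kb of exon (SD, n = 3), followed by Ltbr at 49.7 ± 0.682, Tnfrsf12a at 45.9 ± 2.22 and Tnfrsf1b at 26.5 ± 12.4. Ltbr and Tnfrsf12a lay close to each other, and Tnfrsf1a was well above both. After LPS Tnfrsf1b came first at 134 ± 44.6 CPM per kb, ahead of Tnfrsf1a at 82.8 ± 15.5, Tnfrsf12a at 66.2 ± 10.7, Ltbr at 52.7 ± 1.99 and Tnfrsf23 at 44.5 ± 9.91. The ratio of Tnfrsf1b to Tnfrsf1a, per kb, was 0.223, 0.247 and 0.443 in controls 1, 2 and 3 and 1.27, 1.70 and 1.81 in LPS 1, 2 and 3. Tnfrsf1b was thus the lower of the TNF receptors in every control and the higher in every LPS library.

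Among the ligands Tnfsf12 came first in the controls at 14.9 ± 1.99 CPM per kb, before Tnfsf15 at 10.7 ± 3.82 and Tnfsf18 at 7.49 ± 4.03. Spreads overlapped between neighbours, and Tnfsf15 lay above Tnfsf12 in control 1. Since 48.3% of the exon bases of Tnfsf12 are shared with Tnfsfm13, its level per kb and its rank are uncertain. Tnf was the fifth at 2.74 ± 1.52 CPM per kb. After LPS Tnf came first at 107 ± 32.2 CPM per kb, and the mean of Tnfsf18 was next at 22.8 ± 13.2, though in LPS 3 Tnfsf18 lay below Tnfsf9 and Tnfsf12. Of the summed level of all 16 ligands per kb, Tnf made up 2.95%, 5.71% and 10.7% in controls 1, 2 and 3 and 57.9%, 68.4% and 66.3% in LPS 1, 2 and 3. The summed level of the 25 receptors ran from 284 to 308 CPM per kb in the controls and from 483 to 516 after LPS.

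**Figure D3:**
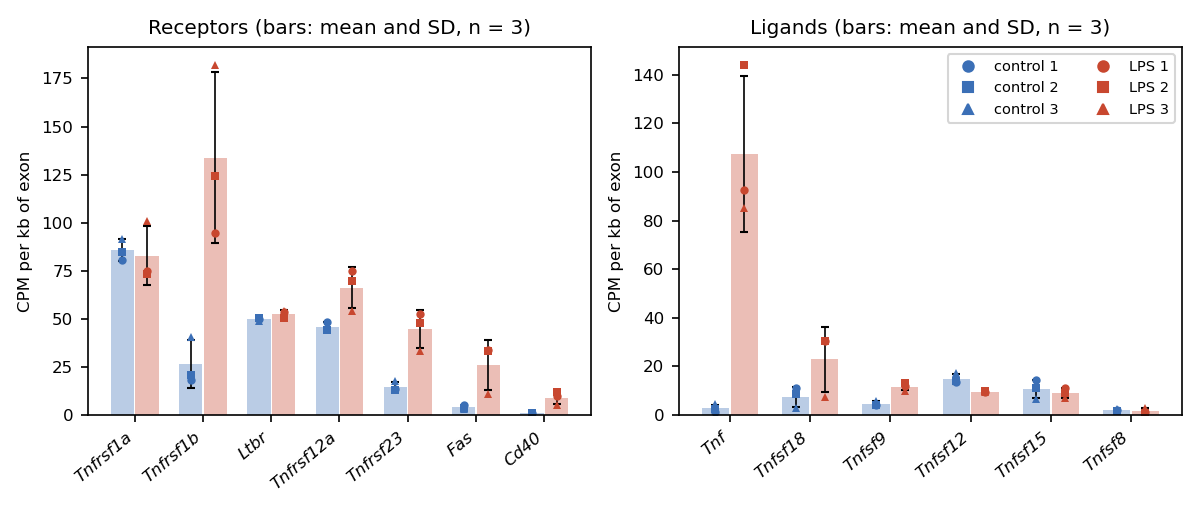
Levels in CPM per kb of exon for 7 receptors (left) and 6 ligands (right), in control (blue) and LPS (red); bars are means, error bars SD over n = 3 and symbols single libraries. Tnfrsf1b passes Tnfrsf1a after LPS, and Tnf goes from 2.74 to 107 CPM per kb while the next ligand, Tnfsf18, has a mean of 22.8.

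Members differed in how they followed the libraries numbered 3, which held the most macrophage marker RNA. All 14 macrophage markers were higher in library 3 than in the mean of libraries 1 and 2 in both groups, with a median ratio of 2.77 in the controls and 5.18 after LPS. Over the 31 members the median ratios were 1.11 and 1.02: 12 members were above 1 in both groups and 10 below 1 in both, beside 5447 and 5490 of the 15205 genes with a value, a similar split. Tnfrsf11a (3.04 in controls and 5.55 after LPS), Tnfrsf13b (2.94 and 2.76), Tnfrsf1b (2.09 and 1.66) and Tnfrsf14 (1.67 and 2.11) were higher in library 3 of both groups. Tnfsf18 (0.313 and 0.249), Tnfrsf11b (0.477 and 0.344), Tnfrsf10b (0.540 and 0.435) and Fas (0.641 and 0.325) were lower in library 3 of both groups, as the summed neuron markers were. Tnf and Tnfrsf9 were high in control 3 and low in LPS 3, with ratios of 2.29 and 0.718 for Tnf and 3.31 and 0.690 for Tnfrsf9. The part of macrophage or neuronal RNA in these differences was not tested. A fit on libraries 1 and 2 alone, added after the data had been seen, called 22.6% of all genes tested higher and 20.4% lower. It called 4 of the 14 macrophage markers higher and 5 lower. All 16 called members kept their calls in it. The log2 fold changes were 5.98 for Tnf, 3.80 for Cd40 and 2.52 for Tnfrsf1b (edgeR adjusted p = 2.45e-05, 9.17e-06 and 3.85e-05). Macrophage markers still summed to 4029 to 5385 CPM in these libraries, so this fit does not measure the part of macrophage RNA.

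**Figure D4:**
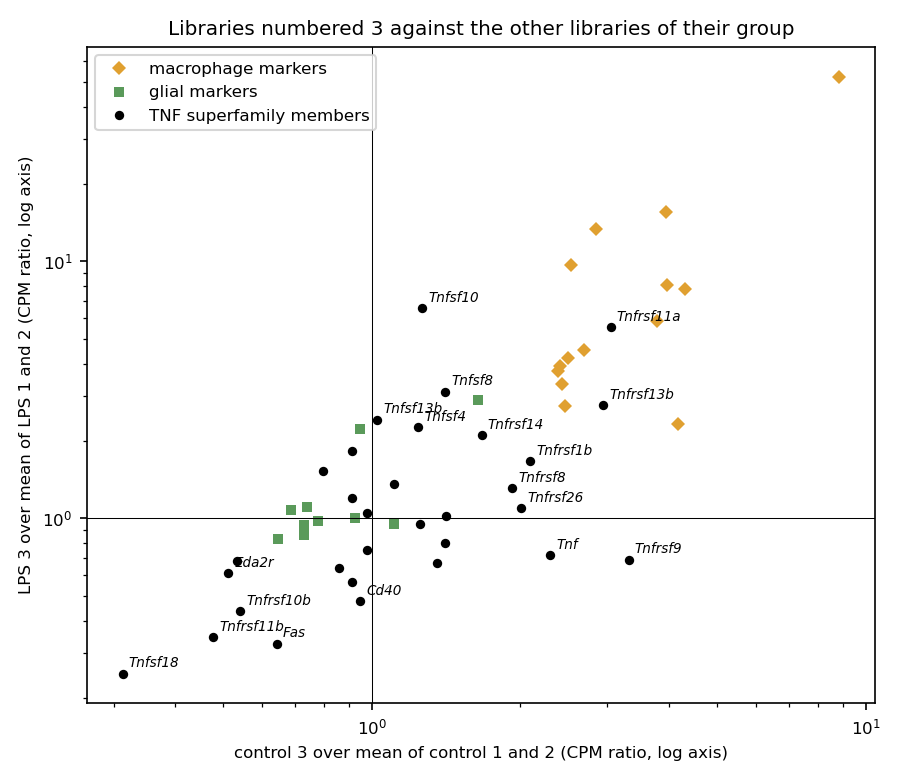
CPM ratio of the library numbered 3 to the mean of libraries 1 and 2 of its group, with controls on the x axis and LPS on the y axis, both log axes; black circles are the 31 members tested, orange diamonds 14 macrophage markers and green squares 10 glial markers. All macrophage markers lie above 1 on both axes, while members lie on both sides of 1 on each axis, with Tnfrsf11a and Tnfrsf13b near the macrophage markers and Tnfsf18 at the lower left.

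The signalling genes below the receptors were followed in lists of adaptors, death effectors, proteases and Tnfaip genes. The lists were drawn up with earlier results of these data known, so their shares beside those of all genes are descriptions only. Of 30 genes of the TRAF and receptor complex, all tested, 9 rose (30.0%, against 9.09% of all genes tested) and 12 did with the replicate block (against 15.4%), with a median log2 fold change of 0.21. Traf1, an adaptor that is itself an NF-κB target, was at 0.763, 0.753 and 0.703 CPM in the controls and 44.2, 58.7 and 45.6 CPM after LPS (log2 fold change of 6.05 ± 0.17 SE, edgeR adjusted p = 8.77e-05). Birc3, a ubiquitin ligase bound to TRAF2, was at 11.6, 11.9 and 15.1 CPM in the controls and 102, 123 and 105 CPM after LPS (log2 fold change of 3.09 ± 0.15 SE, edgeR adjusted p = 0.00026). Both were narrow within groups and far apart between them. Tnfaip3, which encodes the feedback inhibitor A20, rose from a mean of 26.6 ± 8.78 to 186 ± 86.8 CPM (SD, n = 3, log2 fold change of 2.81 ± 0.45 SE, edgeR adjusted p = 0.0146), and LPS 3 was its lowest LPS library. Tank, Traf2, Traf3, Rnf31, Ikbkb and Cyld rose by log2 fold changes of 1.10, 0.95, 0.91, 0.95, 0.49 and 0.35. Traf6 (0.13), Tradd (0.20), Fadd (-0.038) and Ripk1 (0.20), other adaptors and a kinase of the receptor complexes, were not called. The count fell to 5 (Traf1, Birc3, Tank, Traf2 and Traf3) without control 1, control 2, LPS 1 or LPS 2, fits in which 3.15% to 5.42% of all genes were called in either direction.

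Of 16 death signalling genes, 4 rose (25.0%, against 9.09% of all genes tested) and 6 did with the block (against 15.4%), with a median of 0.24. Mlkl, the executor of necroptosis, was at 6.86, 7.57 and 8.97 CPM in the controls and 65.8, 70.9 and 85.8 CPM after LPS (log2 fold change of 3.25 ± 0.16 SE, edgeR adjusted p = 0.0003). Cflar, the inhibitor of caspase 8 activation at death receptors, was at 146, 140.1 and 120.1 CPM in the controls and 269, 289 and 338 CPM after LPS (log2 fold change of 1.14 ± 0.12 SE, edgeR adjusted p = 0.00434). The groups of these genes did not overlap. Cycs and Apaf1, parts of the mitochondrial apoptosome, rose by 0.59 and 0.25, and Casp8 (0.57) and Ripk3 (0.39) were not called (Casp8 edgeR adjusted p = 0.2). The count was 2, Mlkl and Cflar, without control 1, control 2, LPS 1 or LPS 2.

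Of 11 genes that shed or process ligands and receptors, 4 rose (36.4%, against 9.09% of all genes tested) and 1 fell (9.09%, against 6.71%), with a median of 0.11. Adam17, the protease that releases TNF and its receptors from the membrane, was at 114, 127 and 155 CPM in the controls and 251, 262 and 316 CPM after LPS (log2 fold change of 1.07 ± 0.15 SE, edgeR adjusted p = 0.0104). Its cofactor Rhbdf2 rose by a log2 fold change of 1.61, Sppl2a, which cleaves the TNF stub left in the membrane, by 1.25, and the proprotein convertase gene Furin by 0.46. Timp3, which encodes an inhibitor of ADAM17, fell from 1262, 1087 and 1083 CPM in the controls to 299, 241 and 345 CPM after LPS (log2 fold change of -1.96 ± 0.16 SE, edgeR adjusted p = 0.00176). Adam10 was at 295, 297 and 327 CPM in the controls and 228, 212 and 258 CPM after LPS (log2 fold change of -0.39 ± 0.10 SE, edgeR adjusted p = 0.0504), and it was called lower with the block (adjusted p = 0.0138). Timp3 was called in each fit without 1 library, while the count of higher genes was 0 without control 2, 1 without control 1 or LPS 2, 2 without LPS 1 and 3 without LPS 3, where 3 were lower. The list of 9 Tnfaip genes also holds Litaf and genes named for their likeness to Tnfaip8, so it is not a list of TNF-induced genes alone. Of the 9, 3 rose: Tnfaip3, counted above, Tnfaip6 (1.88) and Tnfaip2 (1.45), with a median of 0.67 (33.3% higher, against 9.09% of all genes). Without control 1, control 2, LPS 1 or LPS 2 only Tnfaip2 was called.

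**Figure D5:**
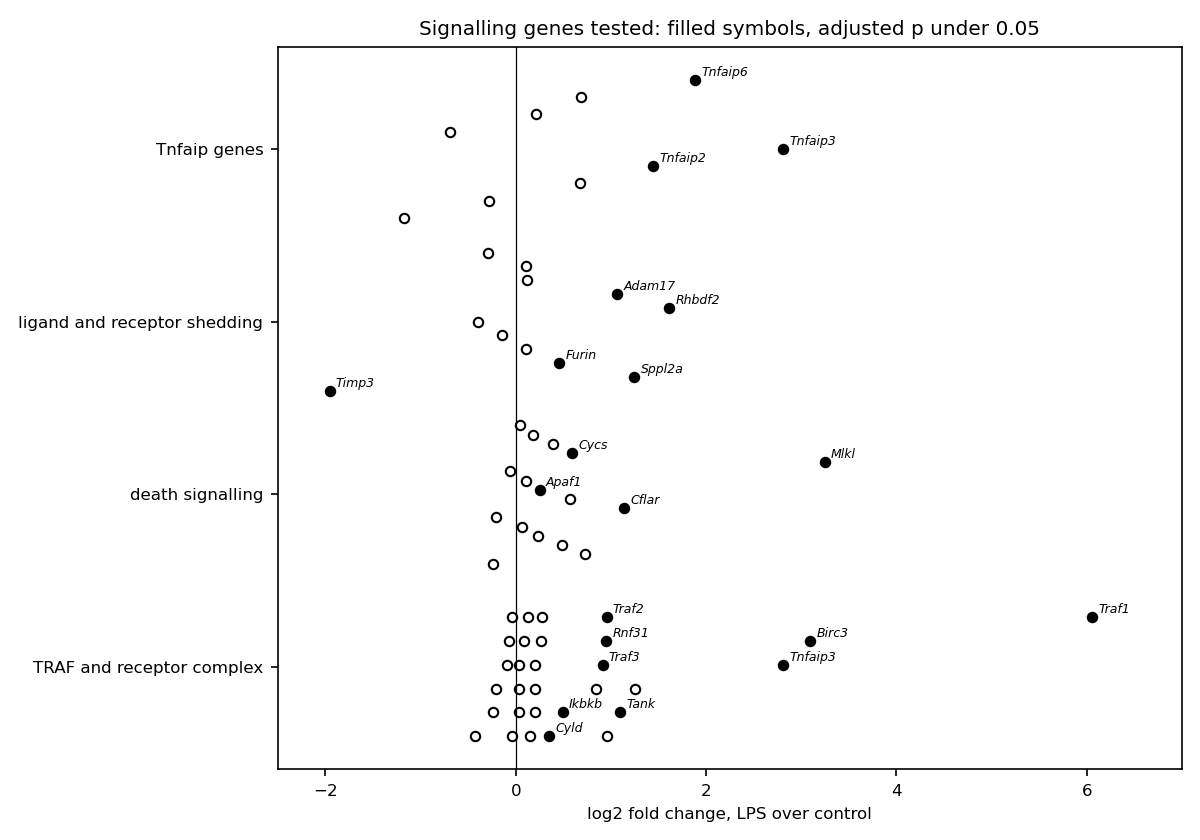
Log2 fold change, LPS over control, of the genes tested in 4 lists of TNF superfamily signalling; each circle is 1 gene, placed at any height within its list, and filled, named circles have an adjusted p under 0.05 in edgeR. Traf1 stands alone at 6.05 and Timp3 is the only filled circle left of 0.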

How the data were processed

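The 6 libraries (3 control, 3 LPS) had been prepared from poly(A) RNA with a stranded TruSeq mRNA kit. Per the labels, the authors trimmed and filtered reads, mapped them to GRCm38 with STAR and deposited raw read counts per Ensembl gene, with no normalization. The submitters' processing notes list cutadapt 1.15, Bowtie2 2.3.3.1, STAR 2.5.2b, SAMtools 1.5 and featureCounts 1.5.3; strand and multimapper settings of the counting are not given in the sources used here. The table of the whole series repeats the single-library files value for value and was not used.

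From the counts, genes were filtered with filterByExpr (minimum count 10, total 15), scaled by TMM and tested with edgeR 4.0.16 (R 4.3.3), using the quasi-likelihood F test on group alone and Benjamini-Hochberg adjustment over 15226 genes; calls had an adjusted p under 0.05. Members, lists and tests were chosen with earlier results of these data known. Values in every library were given for each member called or with a mean of at least 10 CPM in either group; of each list the rule named the called genes with the 3 largest rises and falls at 5 CPM or more, and the other list genes, and the 4 upstream windows shown, were chosen after their values were seen. Alternatives were RLE, upper-quartile and no scaling factors, no filter, at least 10 counts in every library, DESeq2 1.42.0, limma-voom (limma 3.58.1), the replicate number as a block and leaving out each library. The fit without both libraries numbered 3 was added after seeing the data. Deviations from group means of same-numbered libraries correlated at r = 0.58, 0.39 and 0.64 across genes, which are not independent replicates, so the numbers were treated as pairing the libraries from the data; control 2 with LPS 1 and control 1 with LPS 2 gave 0.40 and 0.47, so that only number 3 is set apart, and the labels give no shared animal or day. The fits were tested on simulated data, where DESeq2 made more false calls than the other tools. Of the 46603 identifiers, 46091 were found in GENCODE M21 (GRCm38), which gave positions and exon lengths; upstream windows are RefSeq's. Not every gene of the lists is reported here.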

Additional observations from a re-analysis of the deposited data

How the results depend on the processing

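Members kept their directions wherever they were called. Counts of members called higher ran from 4 to 15 and of members called lower from 1 to 4 when 1 library was left out. These fits called 3.15% to 21.7% of all genes tested in either direction. The same fits gave 5 to 13 higher genes in the TRAF and receptor complex, 2 to 5 in death signalling, 0 to 4 in ligand and receptor shedding (1 to 3 lower), 1 to 4 among Tnfaip genes, and 0 to 2 higher and 0 to 1 lower macrophage markers. Without both libraries numbered 3, where 22.6% of all genes tested were higher and 20.4% lower, 17 members were higher and 5 lower. The counts there were 16 higher and 1 lower in the TRAF and receptor complex, 8 and 1 in death signalling and 5 and 3 in shedding. They were 6 and 1 among Tnfaip genes and 4 and 5 among macrophage markers. With the replicate block, where 15.4% of all genes tested were higher and 14.9% lower, 2 shedding genes were lower. In the same fit 5 macrophage markers were higher and 4 lower. The block changed no call of a member beyond the 5 gained. Shedding genes called lower were 2 with upper-quartile factors, 3 with library size alone, and 2 each with at least 10 counts in every library, in DESeq2 and in limma-voom. Death signalling had 2 higher genes with library size alone and with no filter, and DESeq2 called 2 macrophage markers higher. The cause of these shifts was not tested.

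Log2 fold changes that changed sign belonged to members that were not called. With upper-quartile factors and library size alone these were Tnfrsf13b (-0.059 and -0.10), Tnfrsf10b (-0.081 and -0.14), Tnfrsf4 (-0.035 and -0.085) and Ltbr (-0.021 and -0.073). Tnfrsf10b was at -0.00056 with no filter, -0.024 in limma-voom and -0.023 with the replicate block. Tnfrsf4 was at -0.039 in limma-voom and -0.31 without both libraries numbered 3, where Tnfsf13 was at 0.086. Leaving out 1 library gave ranges of -0.22 to 0.32 for Tnfrsf10b, -1.44 to 0.66 for Tnfrsf11a, -0.62 to 0.79 for Tnfrsf13b, -0.21 to 0.036 for Tnfrsf1a, -0.28 to 0.42 for Tnfrsf4, -0.39 to 0.10 for Tnfsf13 and -0.48 to 0.038 for Tnfsf15. Requiring 10 counts or more in all 6 libraries left 24 members to test, among them 12 of the 16 called members, all still called. The 11 members that did not pass the filter on low counts have no test in the fit on group alone with that filter. With no filter all 42 members were tested, of which 12 were called higher and 3 lower.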

Other observations

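Relatives of the superfamily that the symbol rule leaves out were listed as well, 10 genes of which 5 could be tested. Lgals9, which encodes galectin 9, a lectin reported to bind several receptors of the family, was at 94.8, 103 and 86.3 CPM in controls 1, 2 and 3 and at 275, 288 and 424 CPM in LPS 1, 2 and 3 (log2 fold change of 1.80 ± 0.19 SE, edgeR adjusted p = 0.004), was called in each fit without 1 library, and was the only 1 of the 5 called. Ngfr, the p75 neurotrophin receptor and a glial precursor marker, was at 469, 439 and 362 CPM in the controls and 372, 362 and 349 CPM after LPS (log2 fold change of -0.23 ± 0.11 SE, edgeR adjusted p = 0.227). Grn, which encodes progranulin, was at 762, 886 and 1525 CPM in the controls and 952, 935 and 1965 CPM after LPS, highest in the libraries numbered 3 of both groups (log2 fold change of 0.28 ± 0.40 SE, edgeR adjusted p = 0.681). Relt (0.55) and Eda (-0.41) were not called. Cd40lg, the ligand gene of Cd40, had 0 counts in all 6 libraries, while Cd40 itself rose.

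Among the marker lists, Pax5 was the 1 of 5 B-cell markers that could be tested. It had a log2 fold change of 6.04 ± 0.56 SE, edgeR adjusted p = 0.00259, while the summed level of the list ran from 0.266 to 0.381 CPM in the controls and from 2.56 to 2.77 CPM after LPS. S100a8, a neutrophil and stress gene, was at 0.127, 0.133 and 0.827 CPM in the controls and 14.9, 13.5 and 4.03 CPM after LPS (log2 fold change of 4.87 ± 0.89 SE, edgeR adjusted p = 0.0205), and the other 5 neutrophil markers were too low to test. S100b, a glial marker, was at 24.7, 20.5 and 21.4 CPM in the controls and 4.94, 3.46 and 9.37 CPM after LPS (log2 fold change of -1.91 ± 0.37 SE, edgeR adjusted p = 0.0238). Sox10, also glial, was not called (edgeR adjusted p = 0.332).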
